A study of Mus musculus with 3 samples.

Results

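Natural killer (NK) cells and CD8 T cells are the cytotoxic lymphocytes compared here, within the same suspensions of immune cells from mouse brains that carry metastases. Cells were selected on their own counts. A barcode had to hold at least 500 genes, at most 15% mitochondrial UMIs (unique molecular identifiers, 1 per captured transcript), at most 20000 UMIs and at least 70% of its hashtag counts in 1 hashtag. An NK cell had UMIs of at least 3 of Ncr1, Klre1, Klra4, Klrb1c, Txk and Xcl1 and 0 UMIs of Cd3d and Cd3e. A CD8 T cell had UMIs of at least 2 of Cd3d, Cd3e, Cd3g, Trac and Trbc2, at least 1 UMI over Cd8a and Cd8b1, 0 UMIs of Cd4, and more CD8a than CD4 antibody tags. By these gates 951 of the 12908 barcodes were members, of which 492 were NK and 459 were CD8 T cells. Hashtag samples with at least 20 cells of each class entered the comparison, which left samples 5, 6, 7 and 8, with 410 NK and 426 CD8 T cells. The 14 gate genes and the CD8a and CD4 tags were left out of every test.

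Transcripts, antibody tags and hashtags were counted in the same cells (CITE-seq). Tumour cells of E0771, a mammary carcinoma line of the mouse, had been placed in the brain by carotid injection into female C57Bl/6 mice 2 to 3 months old. The mice either received antibodies against the checkpoint proteins VISTA and PD-L1 every other day, from 3 days after the tumour cells, or did not. The 8 hashed samples were stained with 35 antibodies and pooled into 1 capture. Which hashtag samples came from treated mice was not identified here, so both classes are compared within each sample and no treatment enters. The labels of the transcript library give 1 brain hemisphere per biological sample and do not say whether every hashtag was a separate animal. The p-values therefore concern only how the difference between the classes varies between hashtag samples. The fit shares its estimate of that spread across genes, or across tags, and does not take it from each gene or tag alone. E0771 is a line placed by injection into the artery, and the suspensions hold the cells that survived digestion and Percoll enrichment.

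NK cells and CD8 T cells kill target cells with the same equipment, granules of perforin and granzymes, but they find their targets differently. A CD8 T cell reads peptides on MHC class I through a clonal T cell receptor coupled to the CD3 chains. An NK cell weighs signals from germline-encoded receptors, many of which are inhibitory and bind MHC class I itself, and several activating ones signal through the adaptors Tyrobp (DAP12), Fcer1g and Hcst (DAP10). In tumours, CD8 T cells under lasting antigen stimulation take on checkpoint receptors such as PD-1, the receptor of PD-L1, which was a target of the treatment in this study.

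The barcode oligos of tags that passed the test below, and of the CD8a and CD4 tags that the gate used, are shown because every protein value rests on reading them apart. CD25, CD103, CD172a-SIRPa and I-A-I-E also passed, near the threshold, and are left out here. All bases are in capitals, since the whole 15-base run is the barcode.
NK1.1: GTAACATTACTCGTC
CD45R-B220: CCTACACCTCATAAT
CD117-c-kit: TGCATGTCATCGGTG
CD11c: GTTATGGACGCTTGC
PD-L1: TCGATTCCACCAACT
CD3: GTATGTCCGCTCGAT
PD-1: GAAAGTCAAAGCACT
CD86: CTGGATTTGTGTATC
CD8a: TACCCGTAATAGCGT
CD4: AACAAGACCCTTGAG
Over the 595 pairs of the 35 tags, the closest pairs differed at 6 of the 15 bases. The CD86 and CD8a oligos differed at 13 bases, and the PD-1 and PD-L1 oligos at 8.

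Against its label each class carried its own markers. Levels are given as CPM, the UMIs of a gene summed over the cells of a class and hashtag sample and scaled to a common total. Ncr1, the activating receptor NKp46, was at 432, 410, 356 and 479 CPM in NK cells of samples 5, 6, 7 and 8 and at most 2.3 CPM in CD8 T cells. Klre1 was at 483 to 808 CPM in NK cells and 7.1 to 230 CPM in CD8 T cells. Cd8a and Cd8b1, the chains of the CD8 coreceptor, had 0 UMIs in the NK cells, although the NK gate did not ask for this. After each cell was thinned to 2000 UMIs, 0 of 405 NK cells held Cd8a, which allows up to 0.907% at this depth (exact 95% interval). Trbc2, a constant segment of the T cell receptor beta chain, was at 197 to 274 CPM in NK cells against 1611 to 1940 CPM in CD8 T cells. These genes and tags chose the cells, so their values describe the gates and are not tested.

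At the edges of the gates, the 45 NK cells with 3 gate genes had a median of 51 NK1.1 tags, and the 306 with 5 or 6 genes had 79.5. The 14 barcodes with 2 gate genes, which stayed outside, had 62.5. Of the CD8 T cells, 29 had 1 Cd8 UMI and a median of 28 CD8a tags, and 430 had at least 2 and a median of 87.5 tags. The 70 barcodes outside for having 0 Cd8 UMIs had a median of 4.5 CD8a tags. Beyond the limit of 20000 UMIs lay 57 barcodes of the NK and 115 of the CD8 pattern. A further 36 of the 459 CD8 T cells held at least 3 of the NK gate genes and stayed in.

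The balance of the classes differed between samples. NK cells were 11.9, 4.12, 12.8 and 10.6% of the quality-filtered barcodes of samples 5, 6, 7 and 8, and CD8 T cells were 8.78, 14.5, 7.72 and 13.0%. Sample 6 thus had 0.284 NK cells for each CD8 T cell, and sample 7 had 1.65. Sums ran from 192550 UMIs (the 27 NK cells of sample 6) to 1299458 UMIs (the 151 CD8 T cells of sample 8). The median depth was 4348 UMIs in NK cells and 6069 in CD8 T cells. Markers of other cells were not even. Monocyte and macrophage markers, 10 of 10 with UMIs in both classes, summed to 436 to 824 CPM in NK cells and 2273 to 4539 CPM in CD8 T cells. The largest member was Ly6c2, which also marks memory CD8 T cells. Over the samples compared it was at 198 CPM in NK and 1313 CPM in CD8 T cells, so the sum is not a measure of myeloid transcripts alone. Microglia markers summed to 49.9 to 258 and 58.5 to 244 CPM. Dendritic cell markers summed to 67.5 to 352 CPM in NK and 212 to 680 CPM in CD8 T cells, and endothelial markers to 84.6 to 204 and 37.5 to 434 CPM. Gamma-delta T cell markers summed to 84.6 to 128 and 48.6 to 92.6 CPM. Of these, Trdc was found in 24.9% of NK and 1.17% of CD8 T cells without thinning, and Tcrg-C2 in 0 and 7.98%. Of the B cell markers, Ms4a1, Cd79a and Iglc2 were at 0 in both classes, as were the carcinoma keratins Krt7 and Krt19. Other members of both lists had UMIs. Without thinning, Ighm was found in 25.6% of NK and 21.4% of CD8 T cells, and Krt8 in 8.54 and 7.51%. The B cell list summed to 52.3 to 94.2 CPM in NK and 39.3 to 92.6 CPM in CD8 T cells. The carcinoma list summed to 10.4 to 30.8 and 19.7 to 26.8 CPM.

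Of 5933 genes tested, 314 (5.29%) were higher and 331 (5.58%) were lower in NK than in CD8 T cells (edgeR's quasi-likelihood test with the hashtag sample as a block, Benjamini-Hochberg adjusted p under 0.05). Of these, 301 and 319 went the same way in 4 of 4 samples. Groups of genes are described by their counts against these shares and by their median log2 difference (NK over CD8), which was 0.02 over all genes tested.

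**Figure D1:**
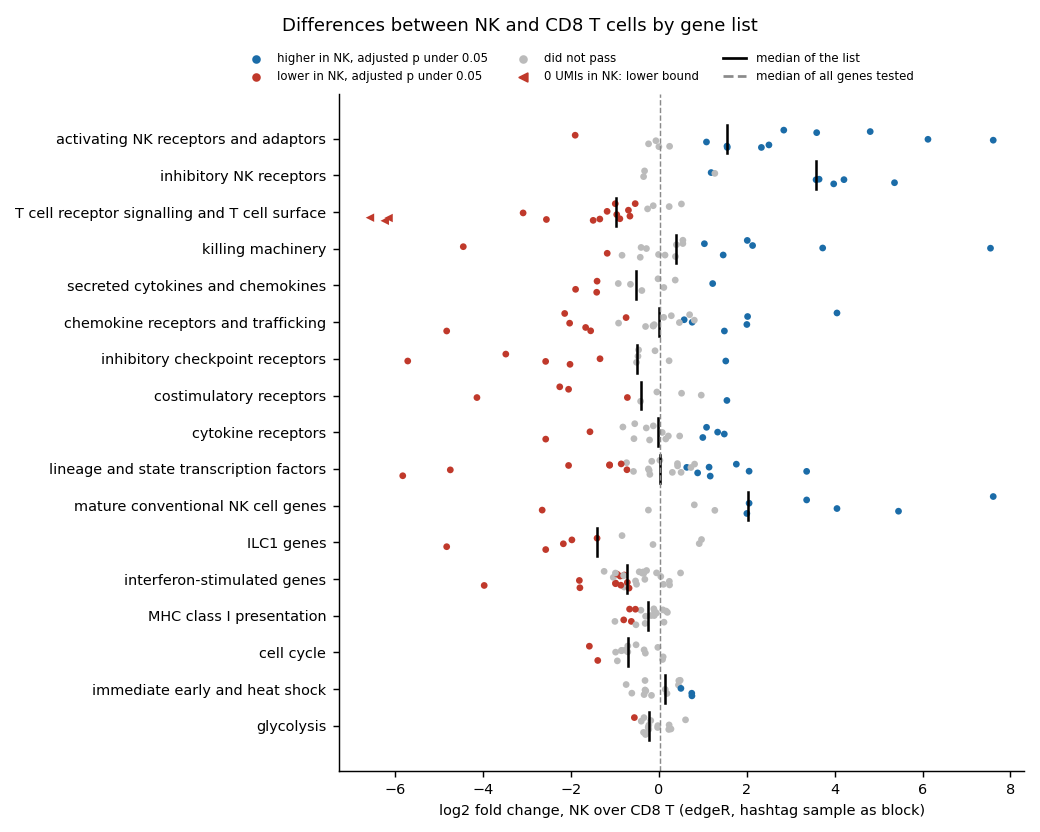
Each point is the log2 fold change of a gene, NK over CD8 T cells, grouped by gene list on the vertical axis. Blue and red points passed the test, black bars are list medians, the dashed line is the median of all genes tested, and the 3 triangles (Themis, Cd5 and Cd6, with 0 UMIs in NK cells) stand at their lower bounds. The NK receptor lists lie mostly to the right and the T cell receptor list to the left, and the trafficking and transcription factor lists hold points that passed on both sides.

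The list of activating NK receptors and their adaptors was mostly higher in NK cells: 10 of 15 tested genes rose and 1 fell, with a median log2 difference of 1.55. Its name does not hold for every member, since it also counts Klrb1b, an inhibitory receptor. Without barcodes that held 5 or more myeloid UMIs, 11 rose and the median was 3.62. Several lie beside the gate genes or belong to their families, so this list is not independent of how the cells were chosen. Klra8 (Ly49H), an activating receptor that pairs with Tyrobp, was at 484, 261, 510 and 370 CPM in NK cells of samples 5, 6, 7 and 8. In CD8 T cells it was at 7.08 CPM in sample 5 and had 0 UMIs in the other samples. The log2 difference was 7.61 ± 0.43 (SE, adjusted p = 2.56e-07). SE here and below is the size of the log2 difference over the square root of the test's F statistic. Where a class holds few UMIs, such as the 6 of Klra8 in CD8 T cells, it can understate the counting error. Tyrobp itself was at 2739, 2059, 2691 and 2709 CPM against 315, 605, 347 and 245 CPM. Its log2 difference was 2.84 ± 0.24 (adjusted p = 7.3e-06), and Fcer1g, the other ITAM adaptor, followed with 2.33 ± 0.25 (adjusted p = 6.38e-05). In both the classes were far apart, with sample 6 the highest among the CD8 T cells. Hcst, the adaptor of NKG2D, did not pass and stood at 485 to 557 CPM in NK and 474 to 800 CPM in CD8 T cells.

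Klrk1 (NKG2D), a receptor of stress ligands that both lineages use, was 2.93-fold higher in NK cells (log2 1.55 ± 0.21, adjusted p = 0.000306). Klrb1b and Klrb1f, lectin-like NKR-P1 receptors, were higher by 6.12 and 4.81 on the log2 scale. Cd244 (2B4) was higher by 2.50, Sh2d1b1 (EAT-2), an adaptor of such receptors, by 3.59, and the kinase Syk by 1.55, which was not called under the stricter gate (0.96, adjusted p = 0.174). That gate took NK cells without UMIs of Cd3g, Trac and Trbc2, and CD8 T cells with at least 3 of the T cell genes and at most 1 of the NK genes. It left 3 hashtag samples, 5, 7 and 8, so its values differ by the loss of sample 6 as well as by the gate. Cd226 (DNAM-1), an activating receptor of both lineages, went the other way. It was at 27.7, 33.4, 25.1 and 30.0 CPM in NK cells and 93.2, 93.9, 74.1 and 165 CPM in CD8 T cells, a log2 difference of -1.91 ± 0.22 (adjusted p = 0.000101). Crtam, Slamf7 and the Fc receptor gene Fcgr3 did not pass. Fcgr3 encodes CD16 and is also a macrophage gene. It had a log2 difference of 0.24 over all cells and 3.79 without the barcodes holding myeloid UMIs, where it passed.

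In the list of inhibitory receptors 6 of 9 tested genes rose and 0 fell, with a median log2 difference of 3.58. The list also counts Klrd1, which has activating partners too, and Klri2, which forms an activating receptor with Klre1. The median was 2.18 without sample 6 and 2.58 without sample 5, and 5.46 under the stricter gate, which also lacked sample 6. Without sample 5, 6 or 7, 1 gene was lower, Cd300a, which was not tested over all cells. Klra9 (Ly49I) was at 285, 278, 224 and 332 CPM in NK cells and at 15.3, 0, 0 and 7.42 CPM in CD8 T cells (log2 5.36 ± 0.38, adjusted p = 1.75e-06). Klra3, Klra7 and Klra1 were higher by 4.21, 3.64 and 3.58. These Ly49 genes are near copies of each other, so reads could have been split between them and the value of a single member is uncertain. Klrd1 (CD94), the shared partner of the NKG2 receptors, was 2.28-fold higher (log2 1.19 ± 0.25, adjusted p = 0.00648), though not called without sample 5 (1.16, adjusted p = 0.0632). Its inhibitory partner Klrc1 (NKG2A) did not pass. Klrc1 was at 144, 111, 100 and 120 CPM in NK cells and 132, 57.8, 182 and 235 CPM in CD8 T cells, so the ranges overlapped. The activating partner Klrc2 did rise, by 1.08 ± 0.19 (adjusted p = 0.00217).

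Many of these receptors share an address. Between Klrb1a and Klra1, at chr6:128609227-130386874 of the mm10 (GRCm38) build, lie 19 tested genes of the NK gene complex. Of these 12 rose and 2 fell in NK cells, and 5 did not pass, among them Clec2i, Clec2d and Klra6. Those that fell were 2310001H17Rik and Cd69, an early activation marker of both lineages, at -0.75 ± 0.16 (adjusted p = 0.00876, and not called without sample 5 at 0.0989 or without sample 7 at 0.0669). The gate genes Klrb1c, Klre1 and Klra4 lie in the same interval and were not counted.

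The share of NK cells with a UMI differed between the Ly49 genes. After thinning, 40.2% of NK cells held a Klra8 UMI, 41.2% Klra7, 31.6% Klra9, 24.4% Klra3 and 16.5% Klra1 (unthinned 49.0, 52.2, 41.2, 30.5 and 21.2%). The same shares in CD8 T cells were 0, 4.03, 1.18, 0.948 and 1.42%. In 319 endothelial barcodes of the same samples, which should lack these genes, they were 0% after thinning, which allows up to 1.15%. Klra8 was found in 43.1, 33.3, 41.8 and 36.7% of the thinned NK cells of samples 5, 6, 7 and 8. Intervals of shares cover counting error only.

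On the T cell side, 14 of 18 tested genes of T cell receptor signalling and the T cell surface were lower in NK cells and 0 were higher, with a median log2 difference of -0.98. Here too the list lies close to the gate. Themis, a signalling protein of T cell selection, was at 93.2, 103, 100.4 and 111 CPM in CD8 T cells and had 0 UMIs in NK cells. With a floor of 3 UMIs over the group it was at least 75.8-fold lower. Cd5 and Cd6, surface regulators of T cell receptor signals, also had 0 UMIs in NK cells and were at least 71.4-fold and 95.8-fold lower.

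The kinases and adaptors of the pathway differed in how far they fell. Lat, the membrane scaffold downstream of the receptor, was at 31.3, 22.3, 32.8 and 42.6 CPM in NK cells and 268, 322, 306 and 284 CPM in CD8 T cells, a log2 difference of -3.09 ± 0.19 (adjusted p = 4.07e-07). Cd28, the costimulatory receptor, fell by 1.5 on the log2 scale (adjusted p = 7.13e-05). Lck, Zap70 and Cd247 are used by NK receptors as well and were lower by smaller amounts, -0.54, -0.70 and -0.89. Each of these 3 was not called when sample 5 or sample 7 was left out (adjusted p = 0.214 and 0.143 for Lck, 0.138 and 0.126 for Zap70, 0.067 and 0.109 for Cd247). Without sample 8, Lck was at 0.0781 and Zap70 at 0.325. Trbc1, the other T cell receptor beta constant segment, was at 428 to 542 CPM in NK cells and 567 to 1325 CPM in CD8 T cells (-0.96 ± 0.16, adjusted p = 0.00179).

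Of 18 tested genes of the killing machinery 6 rose and 2 fell in NK cells and 10 did not pass, with a median log2 difference of 0.38. Gzma, a granzyme of both lineages, was at 9998, 6337, 7778 and 10559 CPM in NK cells and 472, 432, 1059 and 789 CPM in CD8 T cells. The classes were separate in every sample, and the log2 difference was 3.73 ± 0.22 (adjusted p = 2.99e-07). Gzmk went in the opposite direction. It was at 8.42, 5.56, 11.6 and 4.74 CPM in NK cells and 156, 363, 241 and 89.8 CPM in CD8 T cells (-4.46 ± 0.26, adjusted p = 2.56e-07). Gzma (chr13:113093824-113100981) and Gzmk (chr13:113171630-113180965) lie 70649 bases apart.

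Gzmb, the main apoptosis-inducing granzyme, was 2.05-fold higher in NK cells (log2 1.03 ± 0.17, adjusted p = 0.00136). It was at 2558, 1480, 1985 and 2914 CPM against 825, 1008, 963 and 1583 CPM, so NK was higher within each sample although the ranges met. Gzmc, a granzyme of strongly activated killers, was at 215, 812, 65.6 and 420 CPM in NK cells and at most 2.97 CPM in CD8 T cells (log2 7.55 ± 0.29, adjusted p = 9.99e-09). Among the NK sums sample 6 was the highest and sample 7 the lowest. Prf1, the pore-forming perforin, was at 879, 618, 803 and 948 CPM against 146, 152, 100.4 and 436 CPM (2.13 ± 0.25, adjusted p = 0.00012). Serpinb9 and Serpinb6b, which inhibit granzymes inside the cell that makes them, were higher by 2.01 ± 0.19 and 1.46 ± 0.20. Nkg7, a granule membrane protein, stood at 2064 to 2793 CPM in NK and 2081 to 3220 CPM in CD8 T cells and did not pass. Fasl, the granule proteoglycan Srgn and Ctsw also did not pass. Ctsc, the protease that activates granzymes, was called lower at -1.18 (adjusted p = 0.0419). It is abundant in myeloid cells, and without barcodes holding myeloid UMIs its difference was -0.43 (adjusted p = 0.349). It also missed the threshold without sample 5, 7 or 8 (adjusted p = 0.0529, 0.192 and 0.0525).

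**Figure D2:**
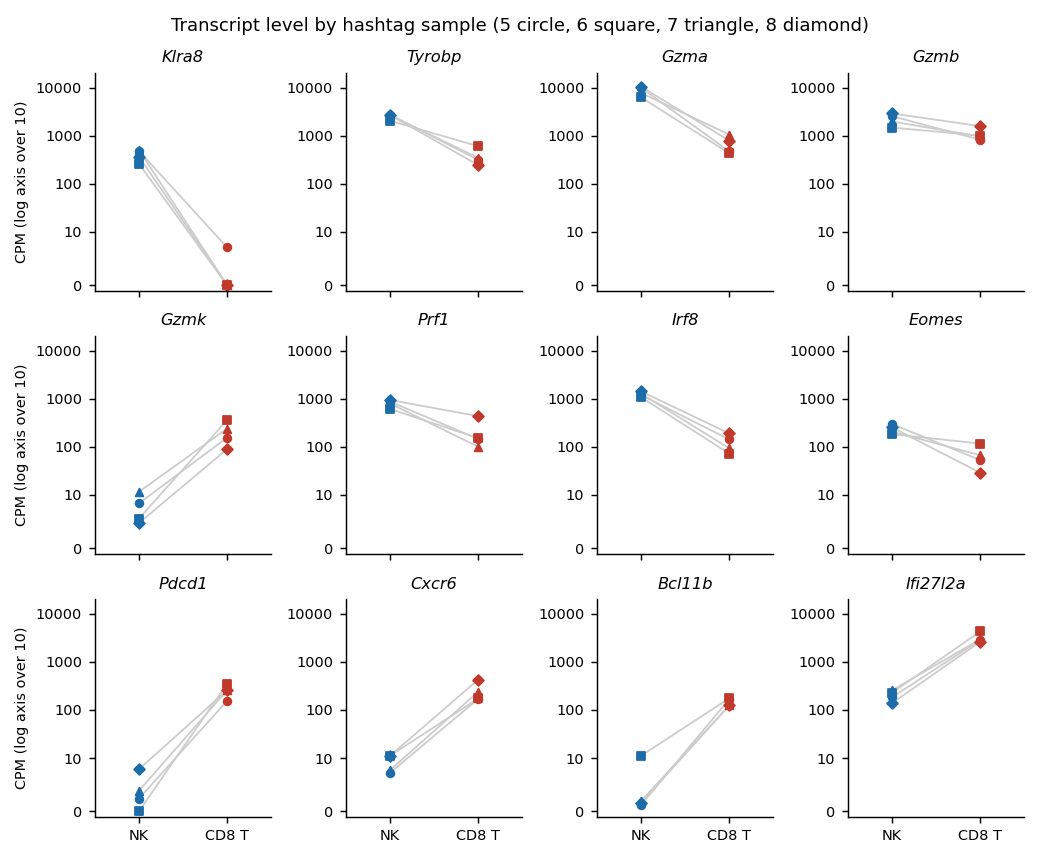
CPM of 12 genes in the summed NK cells (blue) and CD8 T cells (red) of hashtag samples 5 to 8, joined within each sample, on an axis that is linear up to 10 CPM and logarithmic above. Gzma and Gzmk cross in opposite directions, and Gzmb is the only gene shown whose NK and CD8 ranges meet.

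Levels summed over cells do not separate more cells with a transcript from more of it per cell, so shares of cells were counted as well. After thinning, 92.3% of NK cells (exact 95% interval 89.3 to 94.7%) and 25.6% of CD8 T cells (21.5 to 30.0%) held a Gzma UMI. Unthinned, the shares were 93.9 and 33.1%, and the endothelial shares were 0.313% thinned and 1.497% unthinned. Gzmb was far more even, at 72.1 and 57.3% of cells (unthinned 82.0 and 67.8%). Prf1 was found in 67.7 and 30.3% (unthinned 84.4 and 50.7%). Gzmc was found in 9.14% of NK cells and 0.237% of CD8 T cells (unthinned 14.1 and 1.17%), and its NK share was 18.5% in sample 6 and 5.49% in sample 7. Gzmk was found in 1.73% of NK and 28.7% of CD8 T cells (unthinned 3.90 and 51.6%). In CD8 T cells the Gzmk share ran from 15.9% in sample 8 to 51.6% in sample 6. Of the 422 thinned CD8 T cells, 84 held both Gzmb and Gzmk, 158 Gzmb alone and 37 Gzmk alone. The thinned endothelial shares of Gzmb, Gzmc, Gzmk and Prf1 were 0% (up to 1.15% allowed), in barcodes with a median of 5761 UMIs before thinning.

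**Figure D3:**
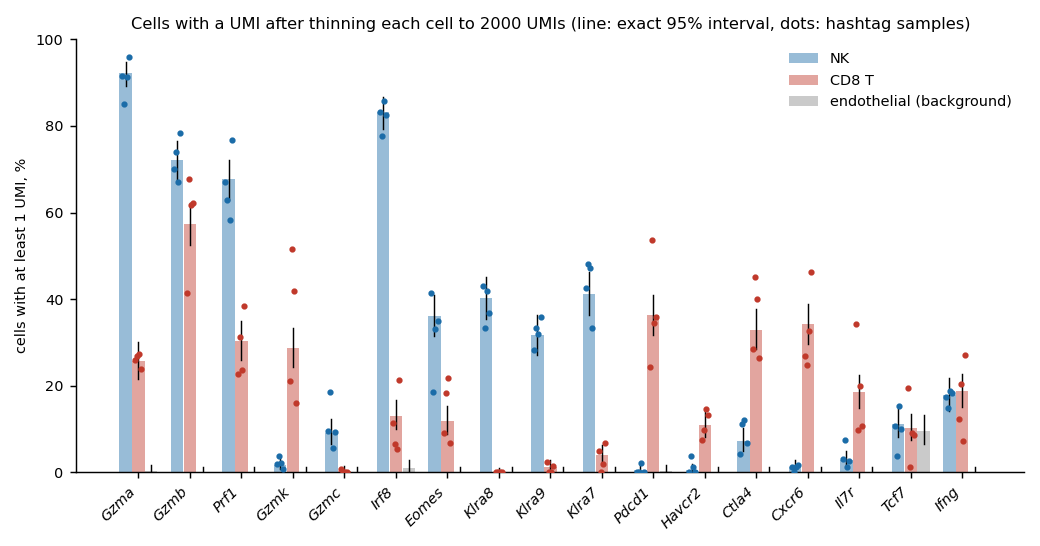
Share of cells with at least 1 UMI of each gene after thinning to 2000 UMIs, in NK cells (blue), CD8 T cells (red) and endothelial barcodes (grey). Lines are exact 95% intervals over all cells and dots are hashtag samples 5 to 8. Tcf7 stands at 11.1, 10.2 and 9.4%, close to its endothelial share, whereas Irf8 and Gzma stand above 80% in NK cells.

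Of 10 tested genes of secreted cytokines and chemokines 1 rose and 3 fell in NK cells and 6 did not pass, with a median log2 difference of -0.52. The medians within samples 5, 6, 7 and 8 were -0.45, -0.86, -0.13 and 0.13, and 2 to 5 genes were lower when a sample was left out, with 5 of 11 without sample 7. Ifng, the shared effector cytokine, was at 127, 55.6, 137 and 167 CPM in NK cells and 957, 112, 50.2 and 234 CPM in CD8 T cells. The ranges overlapped and it did not pass (-0.93 ± 0.50, adjusted p = 0.309), and 17.8 and 18.7% of thinned cells held a UMI (unthinned 30.5 and 30.8%, endothelial 0%). Tnf fell by 1.90 on the log2 scale (adjusted p = 0.00467), from 36.6 to 108 CPM in CD8 T cells to 5.56 to 22.1 CPM in NK cells. Ltb, a lymphotoxin chain, fell by 1.41 (adjusted p = 0.000145). Ccl3, an inflammatory chemokine, was called lower at -1.42 (adjusted p = 0.0315) but not without sample 5 (-0.81, adjusted p = 0.177), without sample 8 (-1.69, 0.0531) or without the block (-1.40, 0.0725). Ccl4 and Ccl5 did not pass. Ccl5 was at 7241, 5219, 6861 and 9850 CPM in NK cells and 7862, 26185, 11698 and 7002 CPM in CD8 T cells, with sample 6 far above the others. Tgfb1 was the gene that rose, at 311, 312, 384 and 357 CPM against 127, 148, 136 and 173 CPM (1.22 ± 0.15, adjusted p = 0.000153).

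Of 22 tested chemokine receptors and adhesion molecules 6 were higher and 6 lower in NK cells and 10 did not pass, with a median log2 difference of -0.002. Without sample 5 the counts were 4 and 2. Cxcr6, a receptor of tissue-resident lymphocytes, was at 7.21, 11.1, 7.72 and 11.1 CPM in NK cells and 170, 173, 239 and 428 CPM in CD8 T cells (-4.83 ± 0.24, adjusted p = 1.13e-07). After thinning 1.23% of NK and 34.1% of CD8 T cells held it (unthinned 2.2 and 57.3%, endothelial 0%). Cxcr3, the receptor of the interferon-induced chemokines, was lower by 1.67 ± 0.23 (adjusted p = 0.000385). Ccr7, the lymph node homing receptor, fell by 2.15 and S1pr1, the egress receptor, by 1.56. Neither was called without sample 5 (adjusted p = 0.0846 and 0.255), and S1pr1 was not called without sample 7 (0.103). Ccr7 was higher in NK cells in sample 6 (27.8 against 16.3 CPM) and S1pr1 in sample 8 (28.4 against 26.0 CPM). Endothelial barcodes held S1pr1 at 539 CPM. Cx3cr1, a receptor of effector lymphocytes and myeloid cells, fell by 2.04 (adjusted p = 0.0114). It was not called without sample 5 (0.134) or sample 8 (0.0706) or under the stricter gate (-0.79, adjusted p = 0.422). In sample 7 it was higher in NK cells (48.3 against 43.0 CPM).

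Higher in NK cells were Itga2 (CD49b), the classical NK integrin, at 92.6, 22.3, 92.7 and 106 CPM against 1.48 to 7.23 CPM (4.05 ± 0.41, adjusted p = 3.64e-05), and Itgax (CD11c), by 2.02 ± 0.24. Ccr2, a receptor for recruitment to inflamed tissue, rose by 1.49 ± 0.19 (adjusted p = 0.000166). Itgb1 rose by 0.57 and was lost without sample 5, 7 or 8 (adjusted p = 0.0878, 0.221 and 0.133). Itga1 (CD49a), a residency integrin, was at 27.0 to 44.5 CPM in NK and 16.3 to 57.4 CPM in CD8 T cells and did not pass. Itgam (CD11b), a marker of mature NK cells that myeloid cells share, had a log2 difference of 0.80 that did not pass over all cells, and of 3.68 without barcodes holding myeloid UMIs, where it passed.

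Checkpoint receptors were lower in NK cells in 5 of 11 tested genes and higher in 1, with a median log2 difference of -0.51. The median was -1.25 without sample 8, and -1.92 over the 6 genes that could be tested in thinned cells. Pdcd1 (PD-1) was at 2.40, 0, 3.86 and 7.90 CPM in NK cells and 155, 352, 258 and 258 CPM in CD8 T cells. No NK sum came near the lowest CD8 sum, and the log2 difference was -5.72 ± 0.30 (adjusted p = 1.67e-07). Thinned, 0.494% of NK cells (exact 95% interval 0.0599 to 1.77%) and 0.313% of endothelial barcodes (0.0079 to 1.73%) held a Pdcd1 UMI, so the intervals overlapped, and 36.3% of CD8 T cells did. Unthinned these shares were 0.976, 0.599 and 59.6%. Havcr2 (TIM-3) was at 4.81 to 6.32 CPM against 43.6 to 92.0 CPM (-3.49 ± 0.30, adjusted p = 8.57e-06). Lag3 fell by 2.58 ± 0.35 and Ctla4 by 2.03 ± 0.18, each without overlap. Vsir, which encodes VISTA, a target of the treatment, was at 28.9, 16.7, 56.0 and 37.9 CPM in NK cells and 104, 81.3, 93.2 and 82.4 CPM in CD8 T cells (-1.34 ± 0.24, adjusted p = 0.00217). Cd274 (PD-L1) did not pass, at 55.6 to 90.7 CPM against 41.6 to 103 CPM. Pdcd1lg2 (PD-L2), the other PD-1 ligand, rose by 1.52 ± 0.31 (adjusted p = 0.00608, but 0.0918 without sample 5). Cd96 and Cd160 did not pass.

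Within CD8 T cells the checkpoint genes did not always share a cell. Of 422 thinned CD8 T cells, 20 held both Pdcd1 and Havcr2, 133 Pdcd1 alone and 26 Havcr2 alone. Pdcd1 and Tcf7, a factor of the stem-like state, were found together in 9 cells, Pdcd1 alone in 144 and Tcf7 alone in 34. The thinned Tcf7 share of CD8 T cells was close to that of endothelial barcodes, so its counts cannot single out stem-like cells. At this depth a cell with a transcript can be missed, so the counts describe detection and not expression. The Pdcd1 share of CD8 T cells was 24.4, 53.8, 34.5 and 35.8% in samples 5, 6, 7 and 8, highest in the sample that was also highest for Gzmk.

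Costimulatory receptors fell in 4 of 9 tested genes and rose in 1, with a median log2 difference of -0.42. Icos, a relative of CD28, was at 96.2, 22.3, 75.3 and 53.7 CPM in NK cells and 261, 253, 296 and 275 CPM in CD8 T cells (-2.06 ± 0.23, adjusted p = 7.48e-05). Slamf6 and Slamf1, homotypic receptors of lymphocytes, fell by 2.26 and 4.15. Cd7, an immunoglobulin family receptor, rose by 1.55 ± 0.18 (adjusted p = 8.6e-05). Cd27 and Tnfrsf9 (4-1BB) did not pass.

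Of 16 tested cytokine receptor genes 4 were higher and 2 lower in NK cells and 10 did not pass, with a median log2 difference of -0.03. Il2rb, the chain through which IL-15 sustains NK cells, was at 1068, 935, 1098 and 1121 CPM in NK cells and 307, 352, 335 and 545 CPM in CD8 T cells (1.49 ± 0.16, adjusted p = 5.65e-05). Il18rap and Il12rb2, receptor chains of IL-18 and IL-12, rose by 1.08 ± 0.19 and 1.33 ± 0.25, and Ifngr1 by 1.00 ± 0.18. Il7r, the IL-7 receptor of resting T cells, was at 30.1, 55.6, 15.4 and 15.8 CPM against 272, 114, 112 and 90.5 CPM (-2.58 ± 0.29, adjusted p = 8.24e-05). Il21r fell by 1.57 (adjusted p = 0.00465, but 0.057 without sample 5). Il18r1, Il2rg, Il15ra and Il2ra did not pass, at 0.47, 0.21, -0.82 and -0.55 (adjusted p = 0.116, 0.487, 0.181 and 0.619).

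Of 27 tested transcription factors 7 were higher and 7 lower in NK cells and 13 did not pass, with a median log2 difference of 0.02. Without sample 5 they were 4 and 2, without sample 7 they were 5 and 4, and without sample 8 they were 6 and 4. Irf8 had the largest rise in this list, at 1203, 1085, 1288 and 1433 CPM in NK cells and 143, 72.3, 93.2 and 191 CPM in CD8 T cells (3.36 ± 0.19, adjusted p = 2.56e-07). It is best known from dendritic cells and macrophages. Its difference was 3.58 without the barcodes holding myeloid UMIs. Thinned, 83.2% of NK cells and 13.0% of CD8 T cells held it (unthinned 96.1 and 33.1%, endothelial 0.940% thinned). Eomes, a T-box factor of conventional NK cells, was at 299, 184, 208 and 254 CPM against 53.1, 117, 66.9 and 28.9 CPM (2.05 ± 0.31, adjusted p = 0.000666). Satb1, a chromatin organizer, rose by 1.76 ± 0.30. Tbx21 (T-bet), Klf2, Nfil3 and Id2 rose by 1.14, 1.17, 0.88 and 0.63. Of these, Tbx21 and Id2 were not called without sample 5 (adjusted p = 0.093 and 0.219) or sample 7 (0.0518 and 0.207), and Nfil3 not without sample 5 (0.113) or sample 8 (0.0887).

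Bcl11b, the factor that holds T cells in their lineage, was at 1.20, 11.1, 1.93 and 1.58 CPM in NK cells and 169, 175, 124 and 125 CPM in CD8 T cells (-5.83 ± 0.35, adjusted p = 3.25e-07). Tox, a factor of persistently stimulated CD8 T cells, was at 33.7, 16.7, 38.6 and 47.4 CPM against 105, 280.0, 119 and 194 CPM (-2.06 ± 0.26, adjusted p = 0.000186). Irf4 had 2 UMIs in NK and 96 in CD8 T cells, a ratio of 33.4 (exact counting interval 9 to 280). Batf and Ikzf2 (Helios) fell by 1.12 and 1.13. Neither was called without sample 5 (adjusted p = 0.0924 and 0.0602) or sample 7 (0.0552 and 0.0577), and Ikzf2 was not called without sample 8 (0.0561) or without the CD8 T cells that held 3 or more NK gate genes (0.0851). Tcf7 did not pass, at 50.1 to 79.1 CPM in NK and 16.3 to 129 CPM in CD8 T cells.

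Group 1 innate lymphocytes comprise conventional NK cells and ILC1, which share many markers. Genes of mature conventional NK cells rose in 6 of 10 tested and fell in 1, with a median log2 difference of 2.02, and of 3.01 without barcodes holding myeloid UMIs. Besides those described above, Khdc1a rose by 5.45 ± 0.43, at 56.9 to 161 CPM against 0 to 4.78 CPM. The gene that fell was Ly6c2, which in mice marks memory CD8 T cells and monocytes as well. It was at 183, 328, 116 and 254 CPM in NK cells and 1889, 958, 1510 and 1003 CPM in CD8 T cells (-2.66 ± 0.30, adjusted p = 8.8e-05). Without barcodes holding myeloid UMIs its difference was -2.59. Klrg1, Itgam and Zeb2 did not pass.

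Genes used to tell ILC1 from NK cells fell in 5 of 9 tested and rose in 0, with a median log2 difference of -1.41. Those were Cxcr6, Il7r and Ltb, described above, with Gpr183 (-2.18 ± 0.32) and Inpp4b (-1.98 ± 0.23). The reference here is the CD8 T cell, so this does not compare NK cells with ILC1. Within NK cells, 146 of 405 thinned cells held Eomes and 5 held Cxcr6, and 0 held both. Eomes and Il7r were found together in 3 cells and Il7r alone in 8. Itgam and Cd27, which order the maturation of mouse NK cells, were found together in 10 cells, Itgam alone in 35 and Cd27 alone in 74. A transcript can be missed at this depth, and the pair counts were not set against the overlap that chance gives. They describe detection and do not mark separate subsets or stages.

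Interferon-stimulated genes were lower in NK cells in 11 of 31 tested and higher in 0, with a median log2 difference of -0.72. The median was negative in each sample, at -0.43, -1.55, -0.27 and -0.39 for samples 5 to 8. Ifi27l2a was at 184, 228, 257 and 139 CPM in NK cells and 2887, 4319.9, 2961 and 2632 CPM in CD8 T cells (-3.98 ± 0.17, adjusted p = 2.31e-08). After thinning 9.63% of NK cells held it, at or under the endothelial 10.3%, and 75.8% of CD8 T cells did (unthinned 15.9, 23.7 and 83.6%). Ifit1 and Ifit3, antiviral effectors, fell by 1.81 ± 0.31 and 1.802 ± 0.25, with the highest CD8 values in sample 6 at 385 and 519 CPM. Isg15, a ubiquitin-like modifier, fell by 0.88 ± 0.20 (adjusted p = 0.0104, but 0.0811 without sample 8). Mx1 was at the threshold (-0.96, adjusted p = 0.0493) and was lost without each of the samples in turn (0.0547 to 0.211) and without barcodes holding myeloid UMIs (0.105). Without sample 5 or without sample 8, 7 of the 31 genes passed. Without barcodes holding myeloid UMIs, 11 of 30 fell and 1 rose, Oasl1 (1.45 ± 0.41, adjusted p = 0.0308, named after its values were seen), which was at 0.49 over all cells and did not pass.

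MHC class I presentation fell in 4 of 18 tested genes and rose in 0, with a median log2 difference of -0.24. H2-K1 and H2-D1, the classical heavy chains, did not pass, at 2913 to 3477 CPM in NK and 2623 to 3507 CPM in CD8 T cells over both genes. B2m did not pass either. The immunoproteasome subunits Psmb8 and Psmb9 fell by 0.54 and 0.67, the peptide transporter subunit Tap1 by 0.80 and H2-T22 by 0.63. Psmb8 and Tap1 were not called without sample 5, 7 or 8 (adjusted p = 0.0582, 0.134 and 0.138 for Psmb8, 0.0702, 0.169 and 0.0891 for Tap1), Psmb9 not without 7 or 8 (0.0657 and 0.087), and H2-T22 not without 5 or 8 (0.128 and 0.111). Without sample 5, 7 or 8, 1 gene of the list passed.

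Few genes of the cell cycle passed, 2 lower and 0 higher of 15 tested, with a median log2 difference of -0.71. Mki67, a proliferation marker, was at 21.6, 55.6, 54.1 and 17.4 CPM in NK cells and 34.2, 59.6, 103 and 162 CPM in CD8 T cells (-1.40 ± 0.38, adjusted p = 0.0326). It was lost without sample 5, 7 or 8 (adjusted p = 0.0742, 0.0777 and 0.231). Tyms, a thymidylate synthesis enzyme, fell by 1.59 (adjusted p = 0.00602, but 0.0513 without sample 7). Barcodes with at least 2 UMIs over 6 mitotic genes were 4.73, 11.1, 12.1 and 6.5% of NK cells and 20.8, 10.5, 20 and 29.1% of CD8 T cells of samples 5 to 8. CD8 T cells were higher in samples 5, 7 and 8. In sample 6 the shares were 3 of 27 NK and 10 of 95 CD8 T cells, too few to rank the classes. Without sample 6, 10 of 18 cell cycle genes were lower in NK cells, and without sample 5, 7 or 8, 0 were. CD8 T cells were the deeper class, and these shares were not thinned.

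Immediate early genes rose in 3 of 15 tested, Jund (0.74 ± 0.14), Btg2 (0.75 ± 0.14) and Junb (0.50, adjusted p = 0.0459), and fell in 0, and 7 rose without barcodes holding myeloid UMIs. Junb was lost without sample 5, 7 or 8 (adjusted p = 0.125, 0.32 and 0.307). Of 15 glycolysis genes 1 fell, Gapdh by 0.56 (adjusted p = 0.0233, but 0.0703, 0.234 and 0.196 without sample 5, 7 or 8). Ribosomal protein genes rose in 1 of 83 tested and fell in 0, with a median log2 difference of 0.14.

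Outside these lists, the largest differences that went the same way in every sample came from genes of varied function. Higher in NK cells by 5.65 to 3.16 on the log2 scale were Klrb1a, Serpinb9b, Styk1, Vegfa, Clnk, Atp1b1, Car2, Spry2, Sulf2, Hhex, Irs2 and Ppp1r3b. Vegfa, the angiogenic growth factor, was at 206, 134, 166 and 163 CPM in NK cells and 4.72, 10.8, 4.78 and 5.20 CPM in CD8 T cells (4.77 ± 0.28, adjusted p = 2.56e-07). Car2, a carbonic anhydrase, was at 291 to 388 CPM against 19.1 to 35.6 CPM (3.63 ± 0.22, adjusted p = 2.99e-07). Spry2, an inhibitor of growth factor signalling, was at 261 to 289 CPM against 3.61 to 40.8 CPM. Clnk, an immune receptor adaptor, and Hhex, a homeobox factor of NK development, were at 44.2 to 55.6 and 27.8 to 75.8 CPM against at most 2.36 and 10.6 CPM.

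Lower in NK cells were Gm8369, Adam19, Dpp4, Nrp1, Ifit1bl1, Slfn1, Camk4, Fam241a, Klk8, Ass1, Thbs1 and Lyz2. Gm8369, an unnamed gene model, was at 2.40, 5.56, 1.93 and 1.58 CPM in NK cells and 382, 567, 449 and 297 CPM in CD8 T cells (-7.28 ± 0.27, adjusted p = 9.99e-09). Adam19, a metalloprotease, had 3 UMIs in NK and 219 in CD8 T cells, a ratio of 50.8 (exact counting interval 17.2 to 248). Dpp4 (CD26), a surface peptidase of T cells, was at 34.1 to 76.5 CPM in CD8 T cells and had UMIs in NK cells of sample 5 only. Slfn1 and Camk4, a quiescence gene and a calcium-dependent kinase of T cells, fell by 3.69 ± 0.30 and 3.67 ± 0.32. Lyz2 (-2.945) and Thbs1 (-3.0) are myeloid genes. Thbs1 was lost without sample 5 or 7 (adjusted p = 0.0686 and 0.114).

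Myeloid UMIs were more frequent in the CD8 T cells. Barcodes with at least 5 UMIs over Lyz2, Apoe, C1qa, C1qb, C1qc, Csf1r and Ms4a7 were 38 of 426 CD8 T cells (8.92%) and 11 of 410 NK cells (2.68%). Without them the summed level of these 7 genes went from 1624 to 104 CPM in CD8 T cells and from 399 to 132 CPM in NK cells. The numbers of genes called were then 353 higher and 316 lower, of which 290 and 236 were called over all cells too. Lyz2 turned from -2.945 to 0.62 and C1qb, a complement gene of macrophages, from -1.16 to 0.15, and neither passed. Fos turned from -0.62, which had not passed, to 0.76 (adjusted p = 0.00895). Tyrobp and Fcer1g, which myeloid cells also express, grew from 2.84 to 4.87 and from 2.33 to 4.67. Gzma, Gzmk, Pdcd1 and Cxcr6 were at 3.65, -4.59, -5.90 and -4.95, near their values over all cells.

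**Figure D4:**
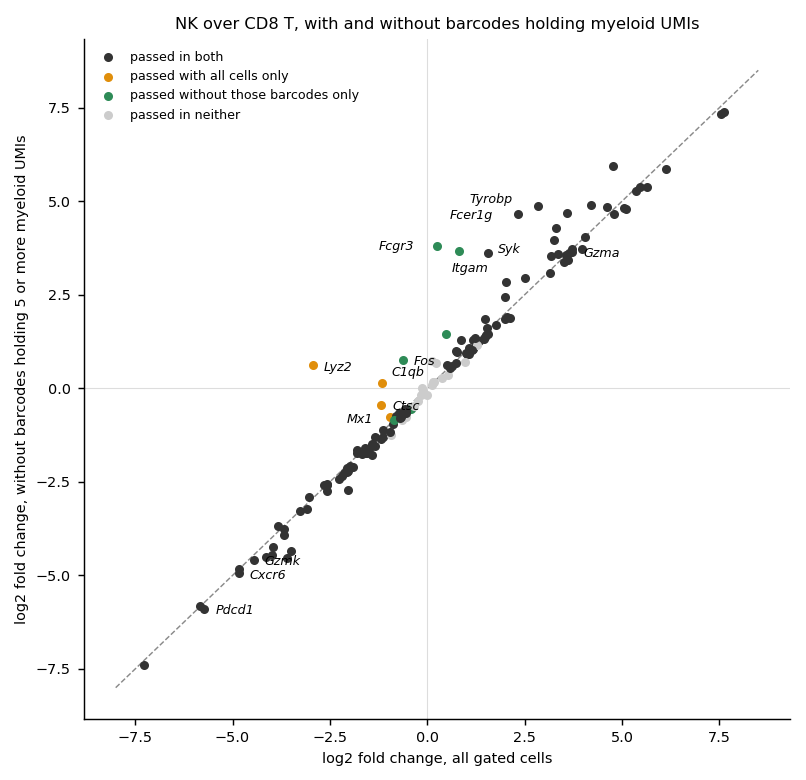
Log2 fold change, NK over CD8 T cells, over all gated cells (horizontal axis) and without barcodes that hold 5 or more myeloid UMIs (vertical axis), for the genes of the lists and those named by rule with over 3 UMIs in each class. The dashed line marks equal values. Lyz2 and C1qb leave the negative side, Fcgr3, Itgam, Tyrobp and Fcer1g move up, and Pdcd1, Cxcr6, Gzma and Gzmk stay near the line.

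Antibody tags gave a second view at the protein level. Of 33 tags tested as a share of all tags of the class, 6 (18.2%) were higher and 6 (18.2%) lower in NK cells. The 33 include CD335, KLRG1 and CXCR4, which had 0 counts and could not be called. NK1.1 among the higher and CD3 among the lower tags are proteins of gate genes, so their calls follow from the gates. CD8 T cells held more tags in all, with medians of 1773 to 2307 tags per cell against 1271 to 1855 in NK cells, so the share and the tags per cell give different splits. Counted per cell, 3 tags were higher and 14 lower. CD45R-B220, CD117-c-kit and NK1.1 were higher and CD3, CD86, PD-1, CD103, I-A-I-E and CD172a-SIRPa lower by both scalings. Without barcodes holding myeloid UMIs, CD172a-SIRPa turned to 0.24 (adjusted p = 0.391), and CD103 (-0.46, adjusted p = 0.0745), I-A-I-E (-0.51, 0.208) and CD25 (0.43, 0.0745) were not called. CD11c, PD-L1 and CD25 were higher as a share only, and CD25 changed sign, from 0.54 to -0.01, when counted per cell.

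NK1.1, the protein of the gate gene Klrb1c, made up 6.46, 7.17, 4.12 and 2.77% of the tags of NK cells of samples 5 to 8 and 1.8, 1.83, 0.721 and 0.388% of those of CD8 T cells. CD3, the complex of the gate genes Cd3d, Cd3e and Cd3g, was at 0.883, 0.321, 0.319 and 0.374% against 1.54, 1.85, 0.884 and 1.39%. Both describe the gates. Each class was the higher one in every sample for its own tag, and both classes carried more NK1.1 in samples 5 and 6 than in samples 7 and 8.

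PD-1, whose transcript is Pdcd1, was at 0.280, 0.110, 0.105 and 0.102% in NK cells and 0.755, 0.718, 0.539 and 0.630% in CD8 T cells (log2 -2.26 ± 0.28, adjusted p = 8.95e-12). The tag and the transcript were both lower in NK cells in 4 of 4 samples. CD86, a ligand of CD28 and CTLA-4 best known on antigen-presenting cells, was at 0.271, 0.688, 0.338 and 0.362% in NK cells and 1.52, 1.79, 2.93 and 2.65% in CD8 T cells (-2.47 ± 0.32, adjusted p = 8.07e-11). The median CD8 T cell carried 20 to 35 CD86 tags and the median NK cell 2 to 7. Its transcript Cd86, chosen after its values were seen, went the same way, at 13.2, 5.56, 13.5 and 17.4 CPM in NK cells and 48.4, 93.9, 45.4 and 50.5 CPM in CD8 T cells (-1.93 ± 0.30, adjusted p = 0.000831). Without the barcodes holding myeloid UMIs the CD86 tag was at -2.68 and the Cd86 transcript at -3.32.

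CD45R-B220, a CD45 isoform known from B cells and activated NK cells, was at 0.554, 0.566, 0.450 and 0.432% in NK cells and 0.170, 0.0847, 0.108 and 0.103% in CD8 T cells (2.14 ± 0.25, adjusted p = 3.64e-12). CD117-c-kit, the stem cell factor receptor, was at 0.210, 0.202, 0.267 and 0.196% against 0.0824, 0.0683, 0.0930 and 0.0848% (1.41 ± 0.22, adjusted p = 3.33e-08). Its transcript Kit, also chosen after its values were seen, was at 44.5, 50.1, 44.4 and 19.0 CPM in NK cells and 3.54, 1.81, 4.78 and 4.45 CPM in CD8 T cells (3.13 ± 0.41, adjusted p = 0.000238). CD117-c-kit counts per cell were low. In samples 5 to 8 the median NK cell carried 2, 2, 2 and 1 of these tags and the median CD8 T cell 1, 2, 1 and 1. CD11c, the protein of Itgax, was at 0.947 to 1.13% against 0.346 to 0.627% (1.04 ± 0.30, adjusted p = 0.00261). Tag and transcript did not always pass together. As a share, the Ly6C tag differed by 0.04 (adjusted p = 0.8291) and the CX3CR1 tag by 0.22 (adjusted p = 0.566). The transcripts Ly6c2 and Cx3cr1 differed by -2.66 and -2.04. Counted per cell, the Ly6C tag was called lower in NK cells (-0.50, adjusted p = 0.000145), the direction of Ly6c2. The CX3CR1 tag was not called per cell (-0.32, adjusted p = 0.318).

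PD-L1, a target of the treatment, was at 0.730, 0.482, 0.117 and 0.259% in NK cells and 0.370, 0.203, 0.0825 and 0.160% in CD8 T cells (0.87 ± 0.24, adjusted p = 0.00261). It was higher in NK cells within each sample but ranged more between samples than between classes. It was not called without the block (0.96, adjusted p = 0.213), with a trimmed mean over the tags (0.67, 0.0579) or per cell (0.32, 0.283), and its transcript Cd274 did not pass. CD103, CD172a-SIRPa, CD25 and I-A-I-E differed by 0.66 or less on the log2 scale and were near the threshold (adjusted p = 0.0265, 0.0385, 0.0488 and 0.0488). Leaving out 1 sample ended each call, with adjusted p = 0.162 and 0.0796 for CD103 (without sample 6 and 8) and 0.0958, 0.162 and 0.179 for CD172a-SIRPa (without 5, 6 and 7). For CD25 it was 0.069, 0.279 and 0.189 (without 5, 6 and 7), and for I-A-I-E 0.0624, 0.402 and 0.341 (without 5, 7 and 8). CD11b did not pass as a share (0.42, adjusted p = 0.223), although the median NK cell carried 24 to 32 CD11b tags and the median CD8 T cell 7 to 9. The CD335 (NKp46), KLRG1 and CXCR4 tags had 0 counts in the cells compared, and 8, 3 and 2 counts over all barcodes, so these antibodies gave no information here.

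**Figure D5:**
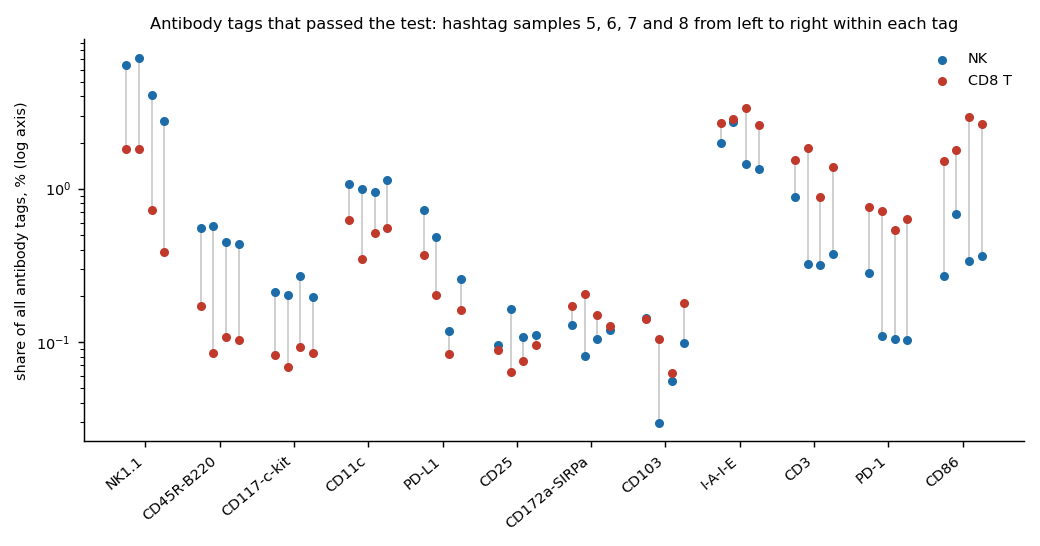
Share of all antibody tags (%, log axis) for the 12 tags that passed, in NK cells (blue) and CD8 T cells (red), with hashtag samples 5, 6, 7 and 8 from left to right within each tag. NK1.1, CD45R-B220 and CD117-c-kit are higher and CD3, PD-1 and CD86 lower in NK cells in each sample, while CD25, CD172a-SIRPa and CD103 lie close together in some samples.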

How the data were processed

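The authors deposited 1 matrix of unnormalized counts, with UMIs per gene and antibody tag for each barcode. The submitters' processing notes name Cell Ranger 3.1, Seurat 3.1.1 and mm10, with no gene annotation stated. Positions come from RefSeq annotation of GRCm38 and were matched by symbol. UMIs of each class were added up within a hashtag and compared with edgeR 4.0.16 in R 4.3.3 (TMM, filterByExpr, hashtag sample as a block). CPM of tested genes used TMM-scaled totals, and CPM of gate and marker genes used plain totals. Tags used all tags as the library size. A gene of the lists that was too low to pass the filter was not tested. No doublet caller was run, and the hashtag limit removed barcodes that mixed hashtags. Endothelial barcodes (at least 3 of Cldn5, Flt1, Cdh5, Slco1a4 and Itm2a, without Ptprc) served as the background for shares of cells. Both classes of a hashtag come from 1 suspension, which gives the pairing. Their deviations correlated at -0.02, -0.13, 0.06 and -0.004 in samples 5 to 8. Genes outside the lists were named by size, the 12 largest rises and falls among genes passing in the same direction in every sample with at least 50 CPM in the higher class. Kinases of the Rps6k family were dropped from the ribosomal list. The method was tested on simulated counts. Members and lists were chosen with earlier results of these data known. Alternatives covered DESeq2 1.42.0, other scalings, filters, gates and left-out samples. Removing CD8 T cells with 3 or more NK gate genes was chosen after seeing the data. Some members of the lists are counted but not reported here by name.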

Additional observations from a re-analysis of the deposited data

Results flagged for a closer look

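Of 56 sets of 4 sample values checked, 5 held a sample whose gap to its nearest neighbour was large for its range by Dixon's 95% critical value, which chance passes in about 1 in 20 sets. All were markers of other cell types. In NK cells, sample 7 stood apart with 258 CPM of microglia markers against 49.9 to 67.5 in the other samples, and with 131 CPM of neutrophil markers against 5.19 to 11.9. Sample 8 stood apart with 824 CPM of monocyte and macrophage markers against 436 to 502. In CD8 T cells, sample 5 had 244 CPM of microglia markers against 58.5 to 83.9, and sample 6 had 51.7 CPM of neutrophil markers against 11.6 to 14.6. Their part in the results was not tested, and counts of genes called without each sample are given with the processing.

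Features outside the comparison held counts in the gated cells. The human hashtags, which label no sample of this study per the sources used here, had 326 counts for H-HTO-1, 457 for H-HTO-2, 4 for H-HTO-3, 78 for H-HTO-4 and 18 for H-HTO-5 over the 836 cells compared. A count of 0 would allow up to 3.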

How the results depend on the processing

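Over all cells 314 genes were higher and 331 lower in NK cells. Leaving out 1 hashtag sample gave 167 to 418 higher and 186 to 443 lower: 167 and 186 without sample 5, 418 and 443 without sample 6, 212 and 234 without sample 7, and 208 and 231 without sample 8. Cells thinned to 2000 UMIs gave 203 and 200 of 2963 genes tested, DESeq2 gave 183 and 212, and no filter on low counts gave 414 and 670. Without the replicate block, which drops the pairing by hashtag, 352 and 355 genes passed. Size factors by another method, a top hashtag of at least 90%, at least 10 cells a side, both stricter gates and removal of cycling barcodes stayed within 1.5 times the counts over all cells. Genes called over all cells and tested again kept their sign in each alternative, other than 5 genes without barcodes holding myeloid UMIs. Among the genes named, Lyz2 (0.62) and C1qb (0.15) turned positive there, as did Fos (0.76), which was not called over all cells. The CD172a-SIRPa tag turned to 0.24 (adjusted p = 0.391). Of tags, 6 were higher and 6 lower. Counted per cell this was 3 and 14, with CD25 at -0.012. Without the replicate block it was 4 and 3, and without barcodes holding myeloid UMIs 6 and 3. Leaving out a sample gave 5 to 7 higher and 4 to 5 lower tags. NK cells of sample 6 rest on 27 cells, which limits the values of that sample. The stricter gate left 3 hashtag samples, without sample 6. The setting of at least 10 cells a side took 6, with samples 2 and 3 added. DESeq2 did not call Batf, Ccl3, Ccr7, Cd247, Ctsc, H2-T22, Id2, Junb, Lck, Mki67, Mx1, Nfil3, S1pr1, Tap1, Tbx21, Thbs1, Tyms and Zap70. The stricter gate did not call Batf, C1qb, Ccl3, Cd247, Cx3cr1, Ikzf2, Itgb1, Lck, Mx1, Syk and Zap70, at least 10 cells a side did not call Ccl3, Cd69, Ctsc, Gapdh, Isg15, Itgb1, Mki67 and Mx1, and without cycling barcodes C1qb, Itgb1, Junb and Mx1 were not called.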
